A study of Macaca fascicularis with 2 samples.

Results

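*HMOX1* and 9 further genes of antioxidant defence, iron storage and metal binding were chosen by symbol, and 7 of these 10 genes had a row among the 21371 genes counted in cells of articular cartilage (AC) and nucleus pulposus (NP) of the cynomolgus monkey. The 7 genes were *HMOX1*, *NQO1*, *GCLM*, *SLC7A11*, *TXNRD1*, *SRXN1* and *SOD2*. *MT2A*, *FTH1* and *FTL* had no row under those symbols and were not analysed here, so that neither ferritin chain is described. Metal binding was described instead through *MT1E*, a metallothionein of the list of zinc response genes, and through a row named *MT2*, which was added after the row names had been seen and was not equated with *MT2A*.

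The cells came from 2 wild type male monkeys, 3 years old, and no group was treated or altered. Surface-biotinylated cells that bound a tag and excluded a dead cell stain were sorted after enzymatic digestion of the tissue, which took longer for AC than for NP, and were sequenced by TAS-seq, a method in which the cDNA of each cell is captured on a barcoded bead and amplified, in 1 pooled RNA library. By their labels the pooled tissues were AC3, NP3 and AC4, whereas 4 tags (A951 to A954) were found among the cells, and no source read here pairs tags with tissues. A tag was therefore used only as a tag, and monkey, tissue and tag cannot be told apart.

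Of 5723 cells, 5674 carried a single tag (997, 1132, 1383 and 2162 cells with A951, A952, A953 and A954). Cells with 5 or more reads of *KRT19* and 5 or more of *TBXT*, both known from the notochord, were called notochordal cells (310 cells), and cells in which *IL17B* had 100 or more rpm (reads of a gene per 1000000 reads of the cell) were called IL17B-high cells (152 cells). The remaining 5212 cells were called other cells, and no cell met both rules. Of the notochordal cells, 67 carried A951, 236 carried A952, 5 carried A953 and 2 carried A954. The IL17B-high cells were spread over the tags as 37, 42, 52 and 21 cells. Near the limits, 3 cells had 4 or more reads of both *KRT19* and *TBXT* without reaching 5 of both, but 404 cells had 5 or more reads of the 2 genes added together, against the 310 used. For *IL17B*, 4 cells had between 50 and 100 rpm and 10 cells between 100 and 200 rpm.

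Notochord genes that the rule did not use were checked in the notochordal cells. *CDH2*, a cell adhesion protein, was at 119.6 rpm in notochordal cells and 1.18 rpm in other cells, *NCAM1* at 506.4 and 25.5 rpm, and *SHH*, a secreted morphogen of the notochord, at 98.7 and 0.874 rpm. All 3 were also higher within each of the tags A951 and A952. Of 7 chondrocyte markers, 5 were lower past 2-fold in notochordal cells (*COL2A1*, *COL9A1*, *MATN3*, *HAPLN1* and *CNMD*) and 2 were higher (*ACAN* and *SOX9*). *COL2A1* was at 1269 rpm in notochordal and 19519 rpm in other cells, and *ACAN* at 14439.7 and 3930 rpm. In IL17B-high cells 2 of the 7 were higher, *CNMD* (log2 ratio 3.69) and *COL9A1* (1.43), 0 were lower, and *COL2A1* was at 30321 rpm. Red cell markers, of which 2 of 7 had a row, together took at most 0.101 rpm in any group. Macrophage and monocyte markers, of which 8 of 10 had a row, together took 23.8, 14.4 and 23.0 rpm in notochordal, IL17B-high and other cells. *CD68* was the most abundant of them (9.64, 7.07 and 17.9 rpm). *CD14* was at 7.46, 6.38 and 2.96 rpm, *LYZ* at 5.21, 0.106 and 0.747 rpm and *PTPRC*, the leukocyte antigen CD45, at 1.30, 0.531 and 0.709 rpm. *CD163*, *CSF1R*, *AIF1* and *FCER1G* each stayed below 0.3 rpm in every group. *CD14* had no stable direction, with log2 ratios to other cells of -2.88 in A951 and 2.58 in A952 for notochordal cells and of 3.47, -2.96, -0.05 and -3.44 for IL17B-high cells, and a read in at most 4.61% of the cells of any group. *LYZ* was higher in notochordal cells in both tags (4.38 and 5.08) but had a read in 2.26% of them. Endothelial markers together took 3.07, 2.66 and 2.60 rpm. Of the osteoclast markers, only *CTSK*, the protease cathepsin K, was detected well enough, and it was lower in notochordal (52.7 rpm) and IL17B-high (39.8 rpm) than in other cells (150.4 rpm). Its log2 ratios were -1.51 and -1.92 pooled, -2.02 and -0.85 within A951 and A952 for notochordal cells, and from -2.71 to -0.86 within tags for IL17B-high cells. *ACP5* and *DCSTAMP* stayed below 0.5 rpm in every group. The part of these marker genes in the values below was not tested.

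The tagged cells held 1344177214 reads in all, from 24907 to 1649566 per cell, with a median of 198094 reads and 3823 genes detected. The IL17B-high cells were deeper (median 383250 reads and 5318 genes) than notochordal cells (186370 reads and 4061 genes) and other cells (195526 reads and 3779.5 genes). Because molecular identifiers were not used in the counting, PCR copies were counted, and the intervals given here, which are 95% exact Poisson intervals for levels and 95% exact Clopper-Pearson intervals for shares, cover counting error only. A group of cells from 1 library has no replicate, so no test was made. Values are set beside their spread over tags, which are not replicates either, and a difference past 2-fold is called higher or lower. Reads are not divided by gene length, so levels are compared between cells. Where a gene is called scarce or abundant beside another, only its number of reads is meant.

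Most of these genes belong to the defence that the transcription factor NRF2 (*NFE2L2*) switches on. In unstressed cells KEAP1 holds NRF2 and leads it to degradation, and electrophiles or oxidants free it, after which it binds antioxidant response elements with small MAF proteins while BACH1 competes for the same elements. *HMOX1* opens the ring of heme and releases iron, biliverdin and carbon monoxide, and is also induced by heat, metals and hypoxia. *GCLM* is the modifier subunit of the enzyme that makes the first intermediate of glutathione, and *SLC7A11* imports the cystine that supplies it. *TXNRD1* reduces thioredoxin, *SRXN1* restores overoxidised peroxiredoxins, and *NQO1* reduces quinones. *SOD2*, the mitochondrial superoxide dismutase, is better known as a target of NF-kB, and metallothioneins bind zinc and copper under the control of the zinc sensor MTF1. Cartilage and NP have few or no vessels and low oxygen.

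*HMOX1* was lower in notochordal cells than in other cells and its pooled level stayed within 2-fold in IL17B-high cells. That level was 116.3 rpm (113.7 to 118.9) in notochordal cells, 315.7 rpm (311.5 to 320.1) in IL17B-high cells and 332.7 rpm (331.7 to 333.7) in other cells. The level in notochordal cells was thus 2.86-fold lower than in other cells (log2 ratio -1.52), whereas that in IL17B-high cells differed by a log2 ratio of -0.08.

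By tag, *HMOX1* in other cells was at 341.1, 326.4, 334.7 and 330.7 rpm for A951 to A954 (333.2 ± 6.27, mean ± SD over 4 tags). In IL17B-high cells it was at 363.6, 310.2, 286.8 and 319.3 rpm (320.0 ± 32.1, 4 tags). In notochordal cells it was at 143.0 rpm in A951 and 105.4 rpm in A952, the tags with 20 or more such cells. The notochordal values of both tags lay below all 8 values of the other groups, while the IL17B-high and other cells overlapped. Within tag the log2 ratio of notochordal to other cells was -1.25 in A951 and -1.63 in A952, and without A952 the pooled ratio was -1.11. Some of these values rested on 1 cell. In A951 a single notochordal cell held 1392 of the 1745 *HMOX1* reads, and in A952 a single IL17B-high cell held 3098 of 4535. Without the cell with the most reads in each tag and group, an alternative added after the data were seen that takes a larger share of the smaller groups, notochordal cells had 29.9 rpm in A951 and 82.2 rpm in A952. IL17B-high cells then had 324.2, 103.8, 219.6 and 255.9 rpm (225.9 ± 92.2, 4 tags) and other cells from 313.7 to 325.8 rpm. Notochordal cells thus stayed below the other cells in both tags, and 3 of the 4 IL17B-high values fell below all values of other cells. The pooled log2 ratios became -2.12 in notochordal and -0.52 in IL17B-high cells. Within A952 the ratio of IL17B-high cells was then -1.60, so that no order of IL17B-high and other cells was read beyond the pooled ratio staying within 2-fold.

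The 5 notochordal cells of A953 had 231.9 rpm, and the 2 of A954 had no *HMOX1* read, where 3 reads would be 11.4 rpm.

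**Figure D1:**
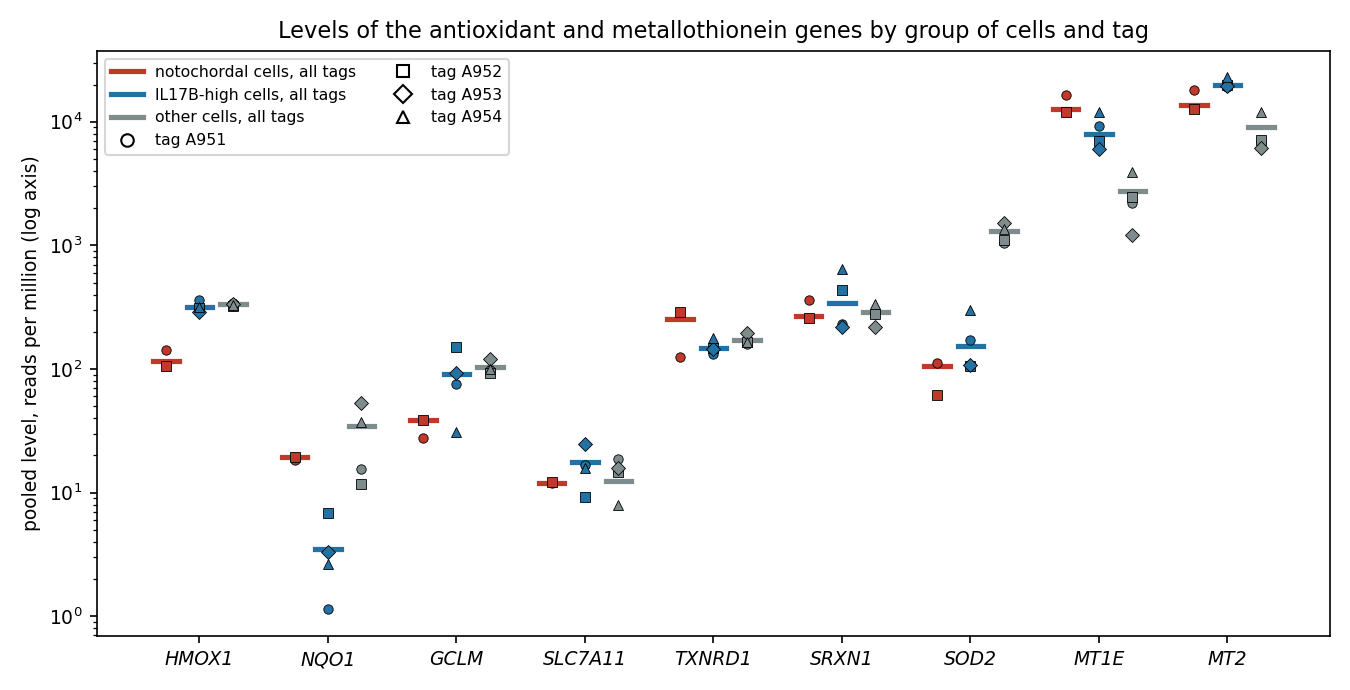
Pooled level in rpm (log axis) of the 7 genes, *MT1E* and *MT2* in notochordal (red), IL17B-high (blue) and other cells (grey). Thick bars are all tags pooled and symbols are single tags with at least 20 cells of the group. *HMOX1* of notochordal cells (143.0 and 105.4 rpm) and *SOD2* of notochordal (111.5 and 61.9 rpm) and IL17B-high cells lie below every tag of the other cells.

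*HMOX1* reads were unevenly spread over cells. At least 1 read was found in 62.3% (56.6 to 67.7) of notochordal cells, 91.4% (85.8 to 95.4) of IL17B-high cells and 69.3% (68.0 to 70.6) of other cells, but the median level was only 5.71, 12.1 and 8.51 rpm. For comparison, *IL17B* had a read in 18.7% of notochordal and 22.7% of other cells, and *TBXT* in 21.1% of IL17B-high cells. These genes had fewer reads in the library than *HMOX1* (128.8 and 45.0 against 321.2 rpm over all cells), so their shares set no upper limit on stray reads of *HMOX1*, and a low level cannot be told apart from such reads. The share of IL17B-high cells moved with their depth. After each cell was thinned to 50000 reads (216 shallower cells left out, 11 of them notochordal and 2 IL17B-high), the shares were 35.8% of notochordal, 59.3% of IL17B-high and 48.6% of other cells. No order was read between IL17B-high and other cells, whose shares and pooled levels went in opposite directions.

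The 57 cells with the highest *HMOX1* level, which are 1% of all, held 16.5% of its reads, and the 568 cells of the highest 10% held 70.1%. All 57 were other cells. The highest 10% held 5 notochordal cells (1.61% of them), 13 IL17B-high cells (8.55%) and 550 other cells (10.6%), and from 7.77% of the cells of A952 to 11.1% of those of A954. A level of 1000 rpm or more was reached by 1.29% of notochordal, 7.24% of IL17B-high and 9.67% of other cells. Low and high *HMOX1* therefore occurred side by side within every group, and the notochordal cells had a smaller upper tail.

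**Figure D2:**
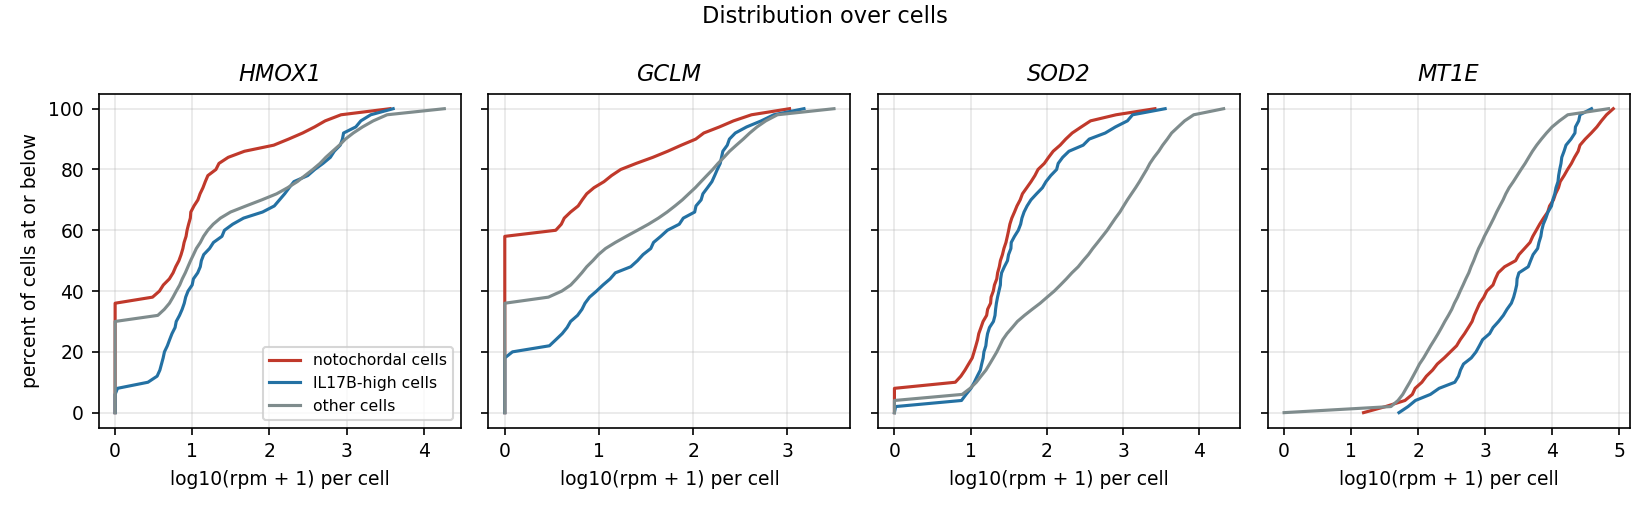
Cumulative distribution over cells of *HMOX1*, *GCLM*, *SOD2* and *MT1E* in the notochordal (red), IL17B-high (blue) and other cells (grey). The x axis is log10(rpm + 1) per cell and the y axis the percent of cells at or below that level. The curve of *SOD2* in other cells lies far to the right of the others (median 298.4 rpm against 23.6 and 29.4 rpm), and the red curve of *HMOX1* reaches 80% of cells at a far lower level than the blue and grey curves.

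None of the 7 genes was higher past 2-fold in notochordal cells and 3 were lower (*HMOX1*, *GCLM* and *SOD2*). Over all 9885 genes detected in 10% or more of the cells of either group, 24.1% were higher past 2-fold, 11.4% were lower and 35.6% were past 2-fold in either direction in notochordal cells, and the median log2 ratio was 0.29, against -0.84 for the 7 genes. In IL17B-high cells 0 of the 7 were higher and 2 were lower (*NQO1* and *SOD2*), where 6.13% of 10593 genes were higher, 16.9% were lower, 23.1% were past 2-fold in either direction and the median was -0.29, against -0.18 for the 7 genes. The balance of all genes in IL17B-high cells depends on the scale, since with means of log2(rpm + 1) 1102 genes were higher and 101 lower, so the shares given for them hold for pooled levels only. On that scale the median of the 7 genes was 0.73. *SRXN1* was then higher (1.40), *NQO1* was within 2-fold (-0.43) and *SOD2* stayed lower. These few genes were not a random draw, and the counts describe them only.

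In the synthesis of glutathione, *GCLM* was lower in notochordal cells. Its level was 38.6 rpm (37.2 to 40.2) in notochordal, 91.7 rpm in IL17B-high and 104.2 rpm in other cells. The log2 ratio of notochordal to other cells was -1.43 pooled, -1.82 in A951 and -1.26 in A952, and the values of both tags (27.9 and 38.4 rpm) lay below those of the other cells (98.6, 92.1, 120.3 and 100.7 rpm). Among IL17B-high cells *GCLM* varied widely with the tag (76.0, 151.5, 93.1 and 31.1 rpm) and overlapped the other cells. *SLC7A11* was scarce, at 12.0, 17.8 and 12.5 rpm in notochordal, IL17B-high and other cells. Its spread over the tags of other cells, from 7.92 to 18.6 rpm, covered the notochordal level in A951 (11.9 rpm) and A952 (12.3 rpm) and 3 of the 4 IL17B-high values. Reads of *SLC7A11* were found in 19.4% (15.1 to 24.2) of notochordal and 18.5% of other cells, beside 18.7% (14.5 to 23.5) and 22.7% with a read of *IL17B*. *IL17B* had more reads in the library than *SLC7A11*, so its shares do not measure the background of *SLC7A11*. No expression was read from the shares of cells with 1 or more reads. At least 5 reads were found for *SLC7A11* in 6.13%, 19.7% and 6.27% of notochordal, IL17B-high and other cells. *IL17B* had as many in 0.422% of other cells. Cells with high *IL17B* were kept out of that group by rule, so this share does not measure background either. The IL17B-high cells were deeper (median 383250 against 195526 reads), and the part of depth in the 19.7% was not tested. After thinning, 1 or more reads of *SLC7A11* were found in 8.36%, 23.3% and 9.18% of the cells.

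Of the thioredoxin and peroxiredoxin genes, the pooled levels of *TXNRD1* and *SRXN1* stayed within 2-fold of other cells in both groups. In IL17B-high cells their medians were nonetheless higher, at 55.7 against 10.9 rpm for *TXNRD1* and 127 against 24.2 rpm for *SRXN1*. With means of log2(rpm + 1) the log2 ratios were 0.97 and 1.40. The IL17B-high cells were deeper (median 383250 against 195526 reads), and the part of depth in these values was not tested. Within tags the pooled log2 ratios ran from -0.43 to 0.10 for *TXNRD1* and from -0.26 to 0.94 for *SRXN1*. *TXNRD1* was at 252.8 rpm in notochordal, 148.2 rpm in IL17B-high and 172.3 rpm in other cells. The notochordal value came from A952 (287.1 rpm, log2 ratio 0.81), since that of A951 was below its other cells (126.1 rpm, -0.34) and the pooled ratio changed from 0.55 to -0.38 without A952. No order was therefore read for *TXNRD1*. *SRXN1* was at 270.7, 342.5 and 289.8 rpm, and its notochordal values in A951 (362.1 rpm) and A952 (257.1 rpm) stood beside 278.3 and 276.5 rpm in the other cells of the same tags. The higher value rested on 1 cell, which held 2476 of the 4418 reads in A951. Without the cell with the most reads in each tag and group, both tags stayed within 2-fold of other cells. Their levels were then 161.9 against 272.3 rpm in A951 (log2 ratio -0.75) and 238.4 against 268.1 rpm in A952 (-0.17). The IL17B-high cells ranged from 219.9 rpm in A953 to 644.8 rpm in A954 and overlapped the other cells (219.5 to 336.9 rpm).

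The level of *NQO1* in IL17B-high cells was below that of other cells in all 4 tags. In notochordal cells the direction depended on how the tags were handled. Its level was 19.3 rpm (18.2 to 20.4) in notochordal, 3.48 rpm (3.04 to 3.96) in IL17B-high and 34.5 rpm (34.1 to 34.8) in other cells. In IL17B-high cells the tags gave 1.14, 6.84, 3.34 and 2.65 rpm, all below the 15.5, 11.7, 53.3 and 37.1 rpm of other cells. The log2 ratio was -3.31 pooled, lay between -4.00 and -0.77 within tags, and was -3.92 without A952, where 1 cell held 74 of the 100 *NQO1* reads of the IL17B-high cells. With means of log2(rpm + 1) it was -0.43, which is within 2-fold. Reads of *NQO1* were present in 27.6% of IL17B-high and 22.8% of other cells. At least 5 reads were found in 4 IL17B-high cells (2.63%), against 10.6% of other cells. No background share was at hand for *NQO1*, so stray reads cannot be told apart from a low level.

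For notochordal cells the pooled log2 ratio of *NQO1* was -0.84, while within tag it was 0.26 in A951 and 0.73 in A952. Without the cell with the most *NQO1* reads in each tag and group, it was -1.19 pooled, -0.09 in A951 and 0.53 in A952. Other cells had more *NQO1* in A953 and A954 than in A951 and A952, and A953 and A954 held 1326 and 2139 of the 5212 other cells but 5 and 2 of the 310 notochordal cells. The pooled ratio thus sets notochordal cells of some tags beside other cells of different tags. *NQO1* was the most uneven of the 7 genes over cells together with *SLC7A11*, with 97.1% and 96.7% of their reads in the highest 10% of cells, and 227 of these 568 cells for *NQO1* carried A953 (16.4% of that tag, against 5.32% of A951).

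**Figure D3:**
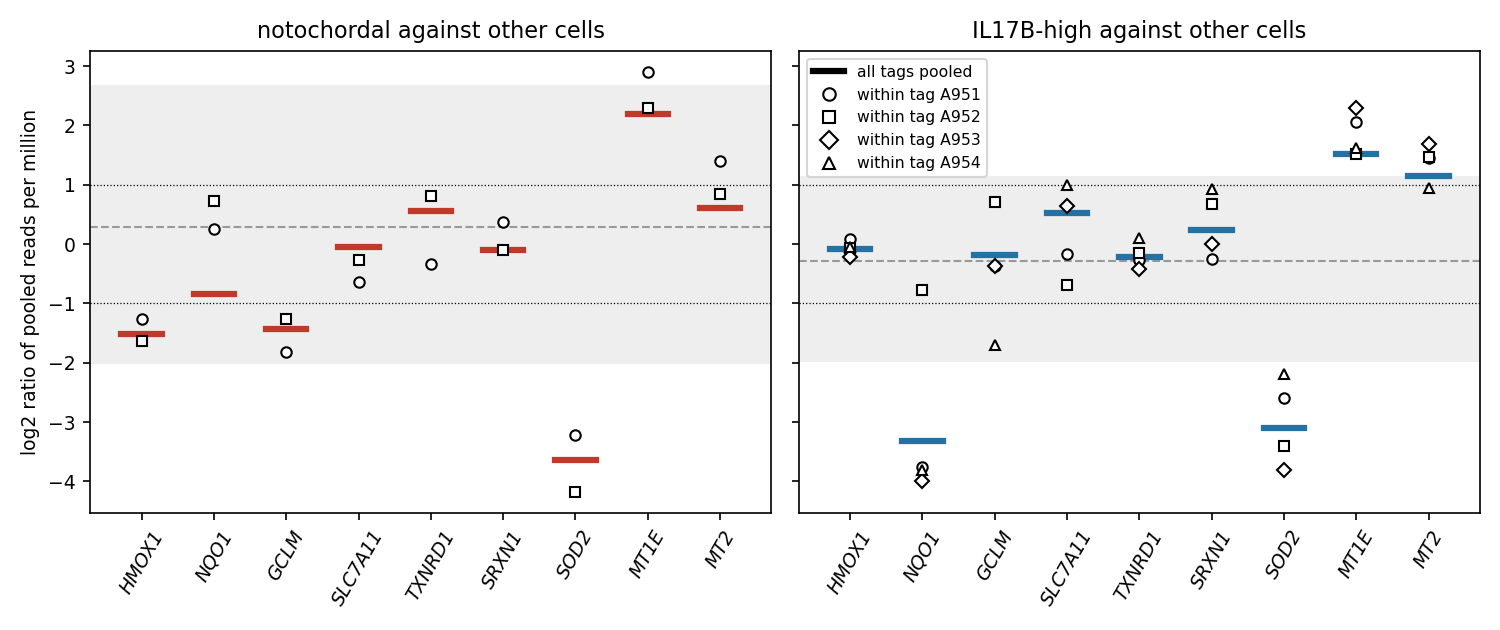
Log2 ratio of pooled rpm of notochordal (left) and IL17B-high cells (right) to other cells. Coloured bars are all tags pooled, symbols are ratios within single tags with at least 20 cells of the group, dotted lines mark 2-fold, the dashed line is the median and the grey band the 5th to 95th percentile of all genes tested. *SOD2* lies below the band in both panels (-3.65 and -3.09), *MT1E* lies above it in IL17B-high cells (1.53), and the pooled *NQO1* bar on the left (-0.84) lies below both of its tags (0.26 and 0.73).

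*SOD2* had the largest difference of the 7 genes in notochordal cells and was also far lower in IL17B-high cells. It was at 105.3 rpm (102.8 to 107.8) in notochordal, 154.4 rpm (151.4 to 157.4) in IL17B-high and 1317 rpm (1315 to 1319) in other cells, which is 12.5-fold and 8.53-fold lower (log2 ratios -3.65 and -3.09). Of 9885 genes, 1.56% had a lower ratio in notochordal cells, and of 10593 genes 1.25% had a lower ratio in IL17B-high cells.

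By tag, *SOD2* in other cells was at 1037, 1113, 1515 and 1361 rpm (1256 ± 221.0, 4 tags). IL17B-high cells had 171.7, 105.3, 108.2 and 298.3 rpm (170.9 ± 90.3, 4 tags), and notochordal cells had 111.5 rpm in A951 and 61.9 rpm in A952. Each of these 6 values lay below every value of the other cells, and the notochordal and IL17B-high cells overlapped. The highest IL17B-high value, in A954, fell to 125.9 rpm without 1 cell that held 2024 of the 3270 reads. The 5 notochordal cells of A953 were an exception at 1056 rpm, but 1 of them held 1467 of the 6955 *SOD2* reads of all notochordal cells. Without A952, the tag that held most notochordal cells, the log2 ratio was -2.40. When 5 reads of *KRT19* and *TBXT* added together were enough to call a cell notochordal, which took in 404 cells, it was -1.53.

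Nearly every cell had a read of *SOD2* (91.0%, 97.4% and 95.7% of notochordal, IL17B-high and other cells). After thinning, the shares were 70.6%, 72.7% and 86.6%, and at least 5 reads were found in 50.3%, 80.9% and 77.8% of the cells. No background share was at hand for a gene as abundant in other cells as *SOD2*, so stray reads cannot be told apart from a low level in the notochordal and IL17B-high cells, and no expression was read from these shares. The median was 23.6 rpm in notochordal, 29.4 rpm in IL17B-high and 298.4 rpm in other cells, and 5.48% of notochordal and 12.5% of IL17B-high cells lay above the median of other cells. All 568 cells with the highest *SOD2* were other cells.

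*MT1E* went the opposite way in both groups, whereas *MT2* was higher past 2-fold only in IL17B-high cells. *MT1E* was at 12639 rpm in notochordal, 7983 rpm in IL17B-high and 2773 rpm in other cells, so that it was 4.56-fold and 2.88-fold higher (log2 ratios 2.19 and 1.53). By tag, other cells had 2202, 2450, 1217 and 3928 rpm of *MT1E*, IL17B-high cells 9182, 6985, 5996 and 12047 rpm, and notochordal cells 16499 rpm in A951 and 12039 rpm in A952. All IL17B-high and notochordal values lay above all values of other cells. The lowest notochordal value was just below the highest IL17B-high value. Without A954, the tag whose other cells had the most *MT1E*, the log2 ratio of notochordal cells was 2.81.

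*MT2* was at 13781, 20003 and 9018 rpm in notochordal, IL17B-high and other cells. It was higher past 2-fold in IL17B-high cells (log2 ratio 1.15, from 0.94 to 1.69 within tags) and stayed within 2-fold in notochordal cells (0.61). Within A951 and A952 its ratio in notochordal cells was 1.40 and 0.84, and the median over notochordal cells (2966 rpm) was below that over other cells (3281 rpm). In both groups the pooled *MT2* level lay above the median, so that a part of the cells carried it in each. These medians also mix tags. Other cells had more *MT2* in A954 (11930 rpm) than in A951 (6898 rpm) and A952 (7123 rpm), and A954 held only 2 notochordal cells. The median of *MT1E*, by contrast, was 2825 rpm over notochordal, 4731 rpm over IL17B-high and 669.7 rpm over other cells, and 68.1% of notochordal cells lay above the median of other cells. A level of 1000 rpm of *MT1E* was reached by 61.0%, 74.3% and 41.5% of the cells, and 35 of the 57 cells with the highest *MT1E* were notochordal. Reads of metallothionein genes may be shared between near-identical copies, so the values of *MT1E* and *MT2* are uncertain as values of single genes.

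Across the 5674 cells no gene was strongly related to *HMOX1*. Spearman's rho of rpm with *HMOX1* had a median of 0.059 over 9343 genes detected in 10% or more of cells and ranged from -0.066 to 0.17. All cells share the library and differ in depth, and rho of *HMOX1* with the number of genes detected was 0.243, larger than with any gene. The values that follow are therefore descriptions of weak relations in sparse counts.

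*GCLM* (rho 0.169) was in place 2 of the 9343 genes and *SRXN1* (0.158) in place 6. The other genes of the highest 10 were *BAG3*, a co-chaperone of HSP70, with 0.17, *BAIAP2* (0.167), *ERF* (0.159), *SKIL* (0.158), *SLC7A5*, an amino acid transporter (0.157), *FOSL1*, an AP-1 subunit (0.157), *ZYX* (0.157) and *VPS37B* (0.157). *TXNRD1* followed in place 62 (0.123) and *NQO1* in place 929 (0.087), *MT1E* (0.081) lay above 84.7% of genes, and *SLC7A11* (0.058) and *MT2* (0.058) lay close to the median of all genes. *SOD2* was near the bottom, in place 9313 (-0.008). The 5 lowest genes, *ACAN* (-0.066), *FMOD* (-0.063), *BGN* (-0.058), *PRG4* (-0.042) and *FN1* (-0.039), were also weakly related, and within notochordal cells all 5 coefficients were positive (from 0.009 to 0.057).

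With the number of genes detected held constant, *GCLM* was at 0.110 (place 4) and *SRXN1* at 0.10 (place 9). By tag, rho of *GCLM* with *HMOX1* was 0.130, 0.161, 0.190 and 0.167 for A951 to A954, and that of *SRXN1* was 0.220, 0.109, 0.149 and 0.135. Both were thus positive in each tag. Within the 310 notochordal cells *GCLM* was at 0.247 and *SRXN1* at 0.104, but within the 152 IL17B-high cells they were at -0.021 and -0.047. *MT1E* (0.282) and *MT2* (0.263) had the highest values of the genes described here within IL17B-high cells.

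**Figure D4:**
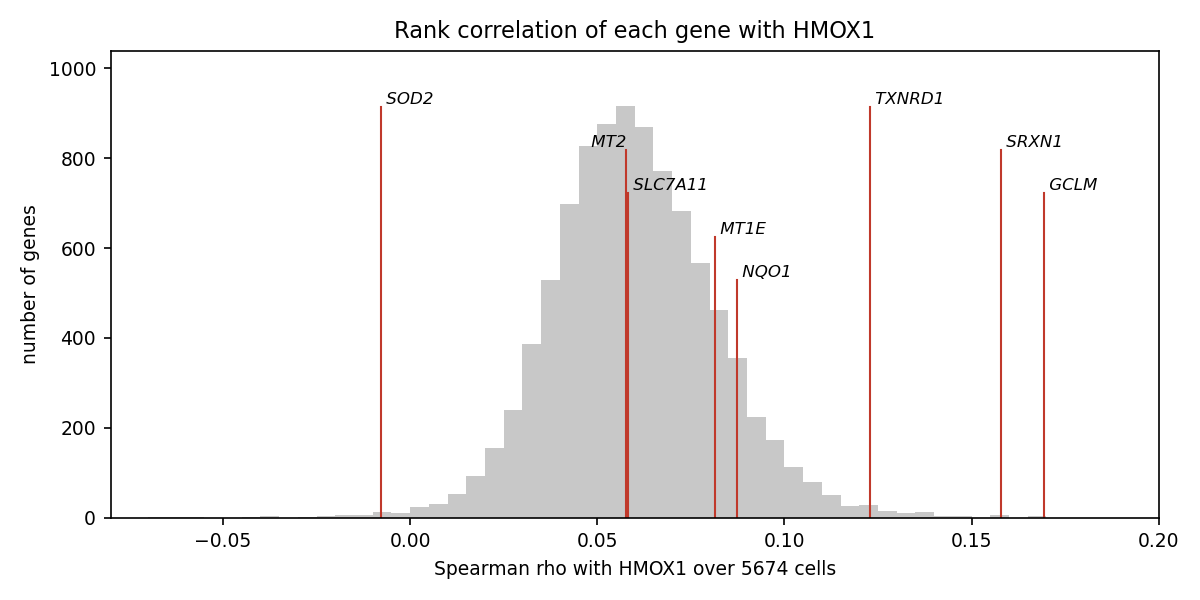
Spearman's rho with *HMOX1* over 5674 cells (x axis) for 9343 genes, as the number of genes in each interval (y axis, grey bars), with red lines at the other 6 genes, *MT1E* and *MT2*. *GCLM* (0.169), *SRXN1* (0.158) and *TXNRD1* (0.123) lie in the right tail and *SOD2* (-0.008) in the left tail of the distribution.

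With *MT1E* and *MT2* included, the strongest relations apart from those of *HMOX1* within other cells were those of *MT1E* with *MT2* (0.54), of *MT2* with *SOD2* (0.37), of *GCLM* with *SRXN1* (0.21) and of *GCLM* with *TXNRD1* (0.19). For *SOD2*, the coefficient was 0.18 with *TXNRD1* and -0.01 with *SRXN1*. *GCLM*, *SRXN1* and *TXNRD1* thus went together weakly with each other and with *HMOX1*. They were no closed set, since *TXNRD1* had a lower coefficient with *SRXN1* (0.16) and with *HMOX1* (0.13) than with *SOD2*. Depth was not held constant in these pairs. The metallothioneins went together, but *SOD2* was related to *MT2* alone of the pair, with a rho of 0.01 to *MT1E*.

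Of 7 genes of the NRF2 system, 2 were higher and 2 were lower past 2-fold in notochordal cells (median log2 ratio 0.69), where 24.1% of all genes were higher and 11.4% lower. For so few genes these counts are near the shares of all genes, and nothing was read from them. *BACH1*, the repressor of *HMOX1*, was at 182.0 rpm in notochordal and 73.8 rpm in other cells (log2 ratio 1.30, with 1.10 in A951 and 1.18 in A952), and *NFE2L2* was at 124.5 and 250.8 rpm (-1.01, with -0.61 in A951 and -0.82 in A952). *KEAP1* was at 27.7 and 60.5 rpm (-1.13, with -0.88 in A951 and -1.51 in A952). Neither of these 2 genes was past 2-fold in both tags. *MAFK*, a small MAF protein, was higher pooled (1.04) but lower within A951 (-3.34). In IL17B-high cells *MAFF* was higher (638.8 against 300.5 rpm, log2 ratio 1.09, but 0.89 without the cell with the most reads in each tag and group), and *SQSTM1*, a KEAP1-binding autophagy receptor, and *KEAP1* were lower (-1.27 and -1.20), the first in all 4 tags past 2-fold.

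Of 26 NRF2 target enzymes and transporters other than the members, 22 had a row and 20 were detected well enough. In notochordal cells 4 were higher (20% of them, against 24.1% of all genes) and 5 were lower (25% against 11.4%), with a median of -0.32, and all 9 kept that direction past 2-fold within both A951 and A952. *GPX4*, which reduces lipid peroxides, was at 428.9 rpm in notochordal and 133.6 rpm in other cells (log2 ratio 1.68), and *IDH1*, which makes NADPH in the cytosol, at 43.2 and 13.7 rpm (1.65). The exporters of conjugated compounds, *ABCC1* (14.9 against 63.8 rpm, -2.10) and *ABCC4* (5.01 against 18.0 rpm, -1.85), were the lowest. In IL17B-high cells 2 of the 20 were higher and 3 were lower (median 0.01), near the 6.13% and 16.9% of all genes. *PRDX1*, a peroxiredoxin, was at 1881 against 748.2 rpm (1.33, from 1.04 to 1.39 within tags), *IDH1* was higher (1.18, but 0.96 without the cells with the most reads), and *CBR1*, a carbonyl reductase, was lower (-2.21).

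Next to *HMOX1* in the breakdown of heme, *HMOX2*, the constitutive heme oxygenase, was higher in notochordal cells (94.9 against 33.5 rpm, log2 ratio 1.5), and so was *BLVRB*, a biliverdin reductase (89.6 against 25.5 rpm, 1.81). They were the 2 of 8 heme genes past 2-fold, which is near the 24.1% of all genes, and 0 were lower. The ratio of *HMOX2* was 0.81 in A951 and 1.62 in A952. In IL17B-high cells 1 of the 8 was lower, near the 16.9% of all genes, namely *SLC48A1*, a heme transporter (3.87 against 29.9 rpm, -2.95). Of the genes of iron uptake and export, 1 of 11 was higher in notochordal cells (*ACO1*, an iron-regulated RNA-binding aconitase, 1.62) and 3 were lower (27.3% against 11.4% of all genes), led by *CP*, the ferroxidase ceruloplasmin (5.51 against 128.9 rpm, -4.55), and *SLC40A1*, the iron exporter ferroportin (23.8 against 129.9 rpm, -2.45). In IL17B-high cells *CP* was also lower (7.17 rpm, -4.17), together with *SLC39A8* (-1.09), and *STEAP3*, a ferrireductase, was higher (22.8 against 5.52 rpm, 2.05, from 1.67 to 2.28 within tags). *STEAP3* passed the filter on detection only through the deeper IL17B-high cells, where 28.3% had a read against 7.64% of other cells, so that it had to differ to be counted. Ratios of *CP* in both groups were past 2-fold within each tag used.

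Among metallothioneins and genes of the zinc response, 4 of 11 had a row and 3 of these 4 were higher in notochordal cells (75% against 24.1% of all genes), namely *MT1E* and the zinc transporters *SLC39A10* (63.4 against 10.7 rpm, log2 ratio 2.57) and *SLC30A1* (230.7 against 44.3 rpm, 2.38). In IL17B-high cells 2 of the 4 were higher (50% against 6.13% of all genes). *SLC30A1* was at 148.8 rpm (1.75) and higher past 2-fold in each of the 4 tags, as was *MT1E*. *SLC30A1* exports zinc and, like metallothioneins, is known as a target of MTF1. Its level had the same order over the 3 groups as that of *MT1E*.

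**Figure D5:**
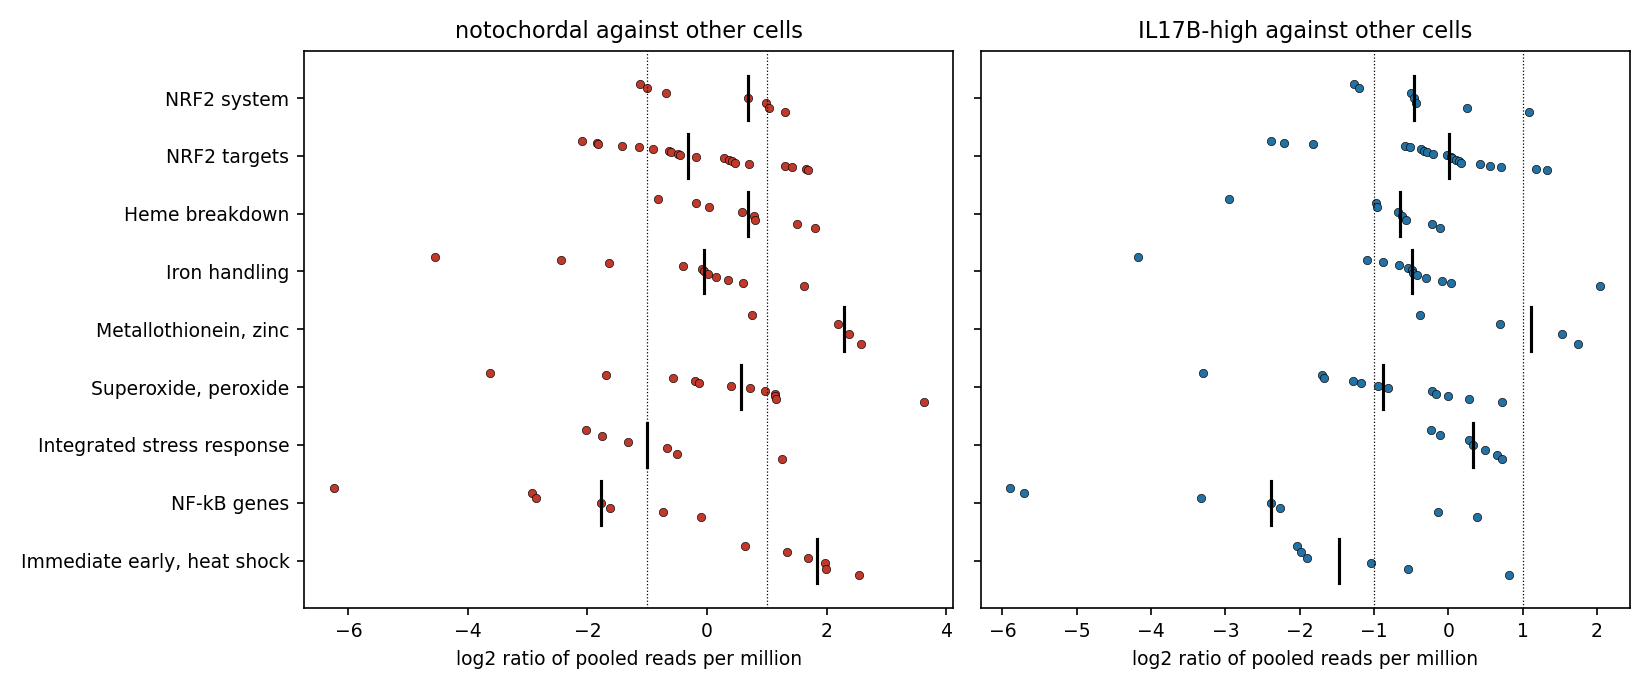
Log2 ratio of pooled rpm to other cells (x axis) for each detected gene of the 9 lists (rows) in notochordal (left) and IL17B-high cells (right). Points are genes, black bars the median of each list and dotted lines 2-fold. The metallothionein and zinc list has the highest median in both panels (2.28 and 1.11), and the NF-kB list the lowest (-1.78 and -2.39).

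Of the defence against superoxide and peroxide apart from *SOD2*, 4 of 12 genes were higher and 2 lower in notochordal cells (median log2 ratio 0.56), near the 24.1% and 11.4% of all genes. In IL17B-high cells 0 were higher and 5 lower (-0.88), which is 41.7% against 16.9% of all genes. *TXNIP*, which binds and inhibits thioredoxin, differed most of these genes between the groups, with 1605 rpm in notochordal, 13.3 rpm in IL17B-high and 130.2 rpm in other cells (3.62 and -3.30). *TXN2*, the mitochondrial thioredoxin, was higher in notochordal cells (1.15) and *GPX7* lower (-1.69). *SOD3*, the extracellular superoxide dismutase, was lower in both, at 255.5 and 972.3 rpm against 3168 rpm (-3.63 and -1.70), past 2-fold within each tag. *SOD1*, the cytosolic form, was higher in notochordal cells (412.5 against 187.8 rpm, 1.13), a gene named here after its value was seen. The 3 superoxide dismutases thus differed in direction in notochordal cells.

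Most NF-kB genes known to accompany *SOD2* were lower with it. In both groups 5 of 7 were lower past 2-fold (71.4%, against 11.4% and 16.9% of all genes) and 0 were higher, with medians of -1.78 in notochordal and -2.39 in IL17B-high cells. The rest, named after their values were seen, stayed within 2-fold. They were *NFKBIA* (-0.74) and *TNFAIP3* (-0.10) in notochordal cells, and *TNFAIP3* (0.39) and *LIF* (-0.14) in IL17B-high cells. The chemokine *CXCL1* was at 0.666 rpm in notochordal, 0.850 rpm in IL17B-high and 50.6 rpm in other cells (-6.25 and -5.90). A read of *CXCL1* was found in 24.3% of IL17B-high and 15.3% of other cells, so the level of other cells came from a small part of them. *IL6* was at 10.0 rpm in notochordal and 76.2 rpm in other cells (-2.93), and *CXCL8* at 3.29 rpm in IL17B-high and 173.1 rpm in other cells (-5.72), although a read of *CXCL8* was found in 61.2% and 42.8% of these cells, the deeper IL17B-high cells first. All 5 genes of each group had a ratio below 0 in every tag used, and they were past 2-fold in every tag for 4 of the 5 in notochordal cells (*ICAM1* was at -0.73 in A951) and all 5 in IL17B-high cells.

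Of the integrated stress response, 1 of 6 genes was higher in notochordal cells (*DDIT3*, 208.9 against 87.5 rpm, log2 ratio 1.26) and 3 were lower (50% against 11.4% of all genes), among them *CHAC1*, which degrades glutathione (83.0 against 337.8 rpm, -2.02), and *SESN2* (-1.76). In IL17B-high cells 0 of 7 passed 2-fold, where 23.1% of all genes did, and for so few genes nothing was read from this count. Of the immediate early and heat shock genes, 5 of 6 were higher in notochordal cells (83.3% against 24.1% of all genes, median 1.83), with *JUN* at 3104 against 533.0 rpm and *DNAJB1*, an HSP40 co-chaperone, at 1122 against 281.1 rpm. In IL17B-high cells 4 of 6 were lower (66.7% against 16.9% of all genes, median -1.47), of which *DNAJB1* (68.3 rpm, -2.04) and *HSPH1* (139.5 against 552.2 rpm, -1.99) were lower in every tag. These genes respond within minutes to handling of cells and heat. In notochordal cells they differed in the direction opposite to *HMOX1*, and their part in its level was not tested.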

How the data were processed

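Read counts of 1 pooled AC and NP library of single cells were used. According to the submitters' processing notes, HISAT2 2.2.1 and featureCounts 2.0.2 were applied, and the values deposited by the authors are raw counts of reads for each gene in each cell, not normalized. In the counting of the authors a read could be assigned to more than 1 gene or locus, and no genome build is named in the sources used here. The 42 cells with several tags and 7 without a tag were removed, no doublet caller was run, and doublets within a tag remain. Pooled rpm, log2 ratios (a group under 3 reads set to 3) and Spearman's rho were calculated with pandas 2.3.3, numpy 2.4.6 and scipy 1.17.1 under Python 3.11.15, and the calculations were tested on simulated data. Ratios were taken over genes detected in 10% or more of the cells of either group, and thinning drew 50000 reads per cell without replacement. The members and lists were chosen with earlier results of these data known. Genes named are the members, up to 2 genes of each list and direction with the largest ratio past 2-fold, and the 10 highest and 5 lowest in rho. A matrix of 1358 columns that match no labelled sample, sharing 15 barcodes with these cells, was not used, nor was the tag library. A planned search for promoter motifs was not run, and promoter sequences were not used here. Of the listed genes, 1 named by the rule is not reported here.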

Additional observations from a re-analysis of the deposited data

Results flagged for a closer look

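Reads of *HMOX1* were also present in barcodes that no comparison used. In the 42 barcodes with several tags its pooled level was 220.7 rpm, with a read in 30 of them, and in the 7 barcodes without a tag it was 536.0 rpm, with a read in all 7. Both values exceed the level that 3 reads would give. No pooled level in rpm of the 7 genes stood apart from the other tags by Dixon's limit in IL17B-high or other cells, the groups with 4 tags. Ratios and shares of cells are not covered by this statement. The log2 ratio of *NQO1* in IL17B-high cells, for instance, was -0.77 in A952 but between -4.00 and -3.76 in the remaining tags.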

How the results depend on the processing

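The analysis rests on 1 library of 2 monkeys, and 67 and 236 of the 310 notochordal cells carried A951 and A952. No paired analysis was possible because there is 1 RNA library and no result came from a test. The log2 ratios of *HMOX1*, *GCLM*, *SOD2* and *MT1E* in notochordal cells and of *SOD2*, *MT1E* and *MT2* in IL17B-high cells kept their sign past 2-fold in 15 of 15 alternatives, and *NQO1* in IL17B-high cells did so in 14 of 15 (-0.43 with means of log2(rpm + 1)). Among the 15, leaving out the filter on low genes could not change the ratio of a single gene. For *HMOX1* in notochordal cells the ratio was -1.06 with *KRT19* and *TBXT* reads added together, -2.01 with mean rpm over cells, -2.0 after thinning, -2.23 without the top 1% of cells, -2.12 without the cell with the most reads in each tag and group, -1.81 when centred on the median of all genes, and from -1.59 to -1.11 when each tag was left out. In IL17B-high cells it was 0.73 with means of log2(rpm + 1), -0.35 with mean rpm, -0.41 after thinning, -0.52 without the cell with the most reads in each tag and group and 0.21 when centred, so that it had no stable sign. Centring, the mean of ratios within tags and leaving out the cell with the most reads were added after the data were seen. The median of the 7 genes was -0.46 in notochordal cells as a mean within tags and -1.19 without the cell with the most reads, and it was 0.73 in IL17B-high cells with means of log2(rpm + 1), where 1 of the 7 was higher (*SRXN1*, 1.40) and 1 lower. In notochordal cells 1094 genes were higher and 691 lower with means of log2(rpm + 1), and 6769 and 2008 without a filter, against 2385 and 1130. In IL17B-high cells 1102 were higher and 101 lower with means of log2(rpm + 1), 398 and 1009 after thinning, and 4185 and 3164 without a filter, and 986 and 1215 when centred, against 649 and 1794. Without the cell with the most reads, 40 of 42 list genes past 2-fold in notochordal cells and 26 of 28 in IL17B-high cells remained so. The share of cells with *HMOX1* was 16.5%, 48.0% and 36.4% of notochordal, IL17B-high and other cells from 5 reads, and 35.8%, 59.3% and 48.6% after thinning. The median rho of the other 6 genes with *HMOX1*, 0.105, was 0.071 after thinning, 0.051 given the genes detected, -0.029 within IL17B-high cells and 0.055 within A952. The cause of these changes was not tested.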
